A study of Arabidopsis thaliana with 39 samples.

Results

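The comparison described here set 6 arrays from the middle of the OZ1 order against 5 arrays from its start. OZ1 and OZ2 name the adjoining parts of the oscillation zone of the Arabidopsis thaliana root tip that the series profiled on 39 Affymetrix ATH1 arrays, 20 of OZ1 and 19 of OZ2. The submitters gave every array a position in a periodic order. The first group held positions 1 to 5 (OZ1-1, then OZ1-4, OZ1-23, then OZ1-14 and OZ1-17), and the middle group held positions 8 to 13 (OZ1-13, then OZ1-15 and OZ1-16, then OZ1-10, followed by OZ1-32 and OZ1-3), so that 11 of the 39 arrays were compared. All roots were of ecotype Columbia, 5 days after germination on standard media without treatment, and the source was DR5-GUS, a line that carries a reporter driven by an auxin-responsive promoter. The series text speaks of individually dissected roots. No source used here states how the order was made. If it came from these arrays, the contrast between its start and its middle was in part chosen by their values, and the p-values measure the spread between these arrays alone.

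In the oscillation zone the transcripts of many genes rise and fall with time as cells leave the meristem, and sites that can later form a lateral root are set aside one after another. Auxin response, read by the DR5 reporter, marks these sites. LBD16, a LOB-domain transcription factor that acts below auxin response factors, and the secreted peptide RALFL34 belong to the early steps in the founder cells, while expansins, xyloglucan endotransglucosylase/hydrolases (XTH) and tubulins belong to the cell expansion that begins in the same stretch of root.

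The arrays of the 2 groups differed before any gene was considered. Hybridisation controls are labelled bacterial and phage transcripts added to each sample in a fixed amount. Their mean log2 signal over 18 probe sets was 10.74, 11.11, 12.50, 12.49 and 12.63 on the first arrays, and ran from 12.33 through a median of 14.03 to 14.54 on the middle arrays. Of the 6 middle arrays, 5 lay above every first array, and OZ1-13 lay among them. The means were 13.76 ± 0.77 (SD, n = 6) and 11.89 ± 0.90 (SD, n = 5), a difference of 1.87. That the controls were highest near position 10 was known when the groups were set, so this difference is a description and no test is given for it. The controls took 0.907 to 2.57% of the summed signal on the first arrays and 1.83 to 10.5% on the middle arrays. On scan day 1 alone the difference was 2.58 (2 against 3 arrays) and on scan day 2 alone 1.06 (4 against 2), and without OZ1-10 and OZ1-3 it was 1.60. High levels were not confined to the middle group, since OZ1-6 at position 7 reached 14.29 and OZ1-31 at position 14 reached 14.54.

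A place between the regions was computed for each array, with 0 for the mean of all other OZ1 arrays and 1 for the mean of all other OZ2 arrays, the array itself left out of both. It was 1.09 for OZ1-10 and 0.72 for OZ1-3, whereas the other 4 middle arrays lay between -0.12 and -0.09 and the first arrays between -0.38 and 0.09. These 2 middle arrays therefore lay nearer OZ2 than the region of their label, and the values without them are given beside the lists and genes that they turned or moved by over 1.5 times. The group means of this place, 0.23 ± 0.53 (SD, n = 6) and -0.15 ± 0.17 (SD, n = 5), differed by 0.39, which did not pass the threshold (two-sided exact permutation test, p = 0.156). The outcome depended on the arrays kept. Without OZ1-10 and OZ1-3 the difference was 0.05 (exact permutation test, p = 0.571), and without OZ1-23 it was 0.45 (exact permutation test, p = 0.00952). Both scan days held arrays of both groups: OZ1-1, OZ1-4, OZ1-23, OZ1-10 and OZ1-32 were scanned on day 1 and the other members on day 2.

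**Figure D1:**
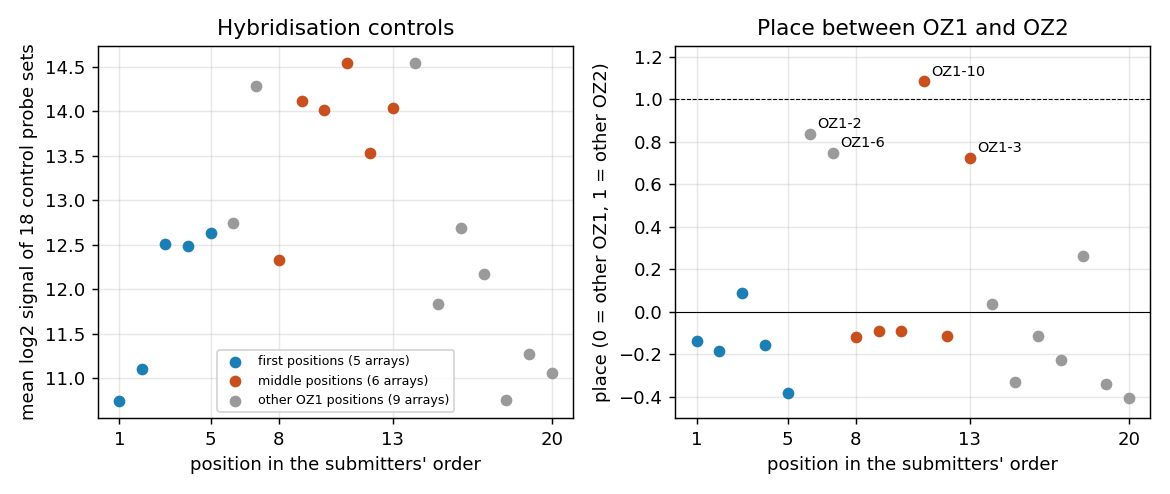
Average log2 signal over the 18 added control probe sets (left) and place between the means of the other OZ1 arrays at 0 and the other OZ2 arrays at 1 (right) for the 20 OZ1 arrays, against their position in the submitters' order, 1 point per array. The controls reach 13.53 or more only at positions 7 and 9 to 14, and OZ1-10 and OZ1-3 of the middle group stand at 1.09 and 0.72 on the right.

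With 5 and 6 arrays, no probe set passed the test. Of 13647 tested probe sets, 0 (0.0%) had an adjusted p under 0.05 (limma, Benjamini-Hochberg over all tested), the smallest being 0.328. An unadjusted p under 0.05 was found for 1694 probe sets (12.4%), 1015 with the higher mean in the middle group (7.44%) and 679 with the lower (4.98%). Every gene named below therefore missed the threshold, and its value is a description.

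Among 2430 bright nuclear protein-coding genes, those with a mean log2 signal of 8 or more over the 11 arrays, values in the middle group were mostly the lower ones. The log2 difference (middle minus first) was below 0 for 72.0% of them with a median of -0.30, while 41 had an unadjusted p under 0.05 on the higher side (1.69%) and 248 on the lower side (10.2%). Dim nuclear genes, 4874 in number, went the other way, with a median of 0.26, 461 on the higher side (9.46%) and 74 on the lower (1.52%). The median over all tested probe sets was 0.01. Single arrays moved these counts: without OZ1-1 the bright genes at an unadjusted p under 0.05 were 19 higher and 134 lower, without OZ1-4 16 and 137, without OZ1-14 161 were lower, and without OZ1-13 66 were higher. On scan day 1 alone they were 61 and 220, and on scan day 2 alone 4 and 15.

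The sign followed brightness. Probe sets with a mean between 5 and 6 had a median difference of 0.57, those between 8 and 9 one of -0.13, and those between 11 and 12 one of -0.61. Per array, the median log2 signal of the bright nuclear genes was 9.31, 9.21, 9.20, 9.26 and 9.26 on the first arrays and ran from 8.87 through a median of 9.01 to 9.18 on the middle arrays, so that the groups did not overlap. The dim tested probe sets ran from 6.56 to 6.85 on the first and from 6.92 to 7.40 on the middle arrays, again without overlap. Quantile normalization moved the median of all tested probe sets to -0.24, at which the bright nuclear genes (-0.28, 24 higher and 135 lower at an unadjusted p under 0.05) no longer stood apart from the dim ones (-0.22). Without OZ1-10 and OZ1-3 the medians were -0.19 for bright and 0.24 for dim nuclear genes, with 49 bright genes on the higher and 267 on the lower side at an unadjusted p under 0.05 (13.6% of all probe sets, 6.81% higher and 6.8% lower). Once the control level was a term in the fit they were -0.077 and 0.07, and 1 bright nuclear gene on the higher and 6 on the lower side had an unadjusted p under 0.05, beside 1.37% of all probe sets (0.616% higher and 0.755% lower). Of the 248 genes on the lower side in the fit without this term, 0 were among those 6. The control level and the group went closely together, with control means of 13.76 on the middle and 11.89 on the first arrays. A fit that holds both cannot separate them well, and the standard error of EXLA1, for 1, was 0.58 without and 0.93 with the term. This limit holds for every value given below with the control term. The part of the control level in this pattern was not tested.

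**Figure D2:**
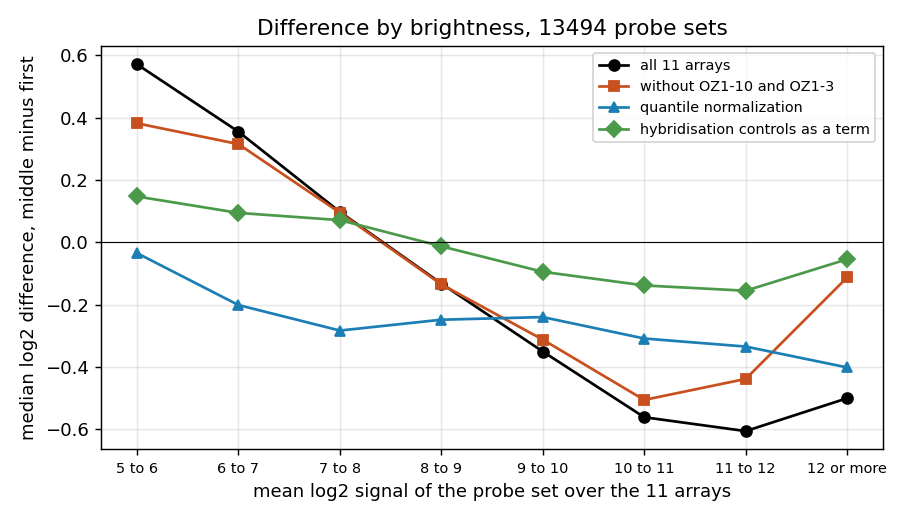
Median log2 difference, middle minus first, of the tested probe sets grouped by mean log2 signal over the 11 arrays, for all 11 arrays, without OZ1-10 and OZ1-3, after quantile normalization, and in the fit that holds the control level. With all 11 arrays the median runs from 0.57 for the dimmest group shown to -0.61 between 11 and 12, and with the control term the medians lie between -0.16 and 0.15.

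The 8 bright nuclear genes with the smallest p on the higher side had log2 differences of 1.12 to 2.53 (adjusted p 0.328 to 0.345, limma). The level of 8 is a mean over both groups. On the first arrays alone the means of EXLA1 (6.66), AT5G14210 (7.29), AT5G53740 (7.43) and ATSRL1 (7.44) lay below it. So did those of ATLIG4 (7.54) and AT2G07722 (7.88). These genes counted as bright only through the middle group, and on the first arrays they were as dim as the genes kept apart. In 3 of the 8 no middle array overlapped a first array, beside 8 such genes among all 2430 (0.329%) and 1.12% of all tested probe sets. EXLA1, an expansin-like cell wall protein, read 7.18, 6.92, 7.83, 5.38 and 5.98 on the first arrays, in their order, and from 8.20 through a median of 8.83 to 11.13 on the middle arrays. Its difference was 2.53 (95% confidence interval 1.30 to 3.75), about 5.76-fold, with the highest values on OZ1-10 and OZ1-3 (unadjusted p = 0.000499, adjusted p = 0.328). Without those 2 arrays it was 1.88, and with the control term 2.05. Of the 8, EXLA1 alone had an unadjusted p under 0.05 with the control term (0.0452). It read 10.02 ± 0.64 (SD, n = 4) on the OZ2 arrays that carry first-group title numbers.

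AT5G53740, which has no symbol in the annotation used, read 6.09, 7.25, 7.55, 8.39 and 7.86 on the first arrays and from 8.80 through a median of 9.14 to 9.96 on the middle arrays. The lowest middle array lay above the highest first array, with a difference of 1.79 (95% confidence interval 0.91 to 2.66) (unadjusted p = 0.000558, adjusted p = 0.328). It was 1.77 without OZ1-10 and OZ1-3, 0.87 with the control term, 2.70 on scan day 1 alone and 0.87 on scan day 2 alone. ATLIG4, the DNA ligase of non-homologous end joining, read 7.07, 7.16, 7.78, 7.52 and 8.16 against from 7.95 through a median of 8.56 to 9.59, a difference of 1.21 (95% confidence interval 0.37 to 2.05). Its groups overlapped only through OZ1-17 and OZ1-32. ATSRL1 (difference 1.15), AT5G11680 (1.12) and AT5G14210 (1.31) overlapped as well. The remaining members of the 8, AT2G07722 (2.41) and AT2G07741 (1.80), are described with the organelle genes.

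On the lower side the 8 genes had log2 differences of -2.13 to -1.12 (adjusted p 0.328 to 0.331). XTH19, an enzyme that cuts and rejoins xyloglucan in growing walls, read 11.37, 10.96, 10.87, 10.69 and 9.91 on the first arrays and from 6.73 through a median of 8.52 to 10.61 on the middle arrays. Only OZ1-13, the middle array with the lowest controls, came within the range of the first group, and OZ1-10 was lowest. The difference was -2.13 (95% confidence interval -3.25 to -1.01) (unadjusted p = 0.001, adjusted p = 0.328). It was -1.63 without OZ1-10 and OZ1-3, and -0.32 with the control term. AT4G24550, the mu adaptin of the AP-4 coat that sorts cargo at the trans-Golgi network, read 10.11, 10.21, 9.48, 9.33 and 9.68 against from 7.83 through a median of 8.47 to 9.25, with no overlap. Its lowest values fell on OZ1-15, OZ1-16 and OZ1-32, not on the arrays near OZ2, and the difference of -1.27 was -1.58 without those 2. AT3G09570 (-1.21) and AT4G01870 (-1.12) did not overlap between the groups either, beside 14 such genes among the 2430 (0.576%) and 0.476% of all tested probe sets. AT2G47550 (-1.96), AT3G60910 (-1.65), AT5G10160 (-1.62) and AT3G44330 (-1.31) completed the 8, and each overlapped through 1 middle array, OZ1-32 in AT3G60910 and OZ1-13 in the others. Of the 16 genes of both sides, the control term turned the sign of 2 and made 11 smaller by over 1.5 times. On scan day 2 alone 5 were smaller by that much, and on scan day 1 alone 1 was smaller and 2 were larger. Without OZ1-10 and OZ1-3 the 1 moved by over 1.5 times was AT5G14210, from 1.31 to 0.86.

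**Figure D3:**
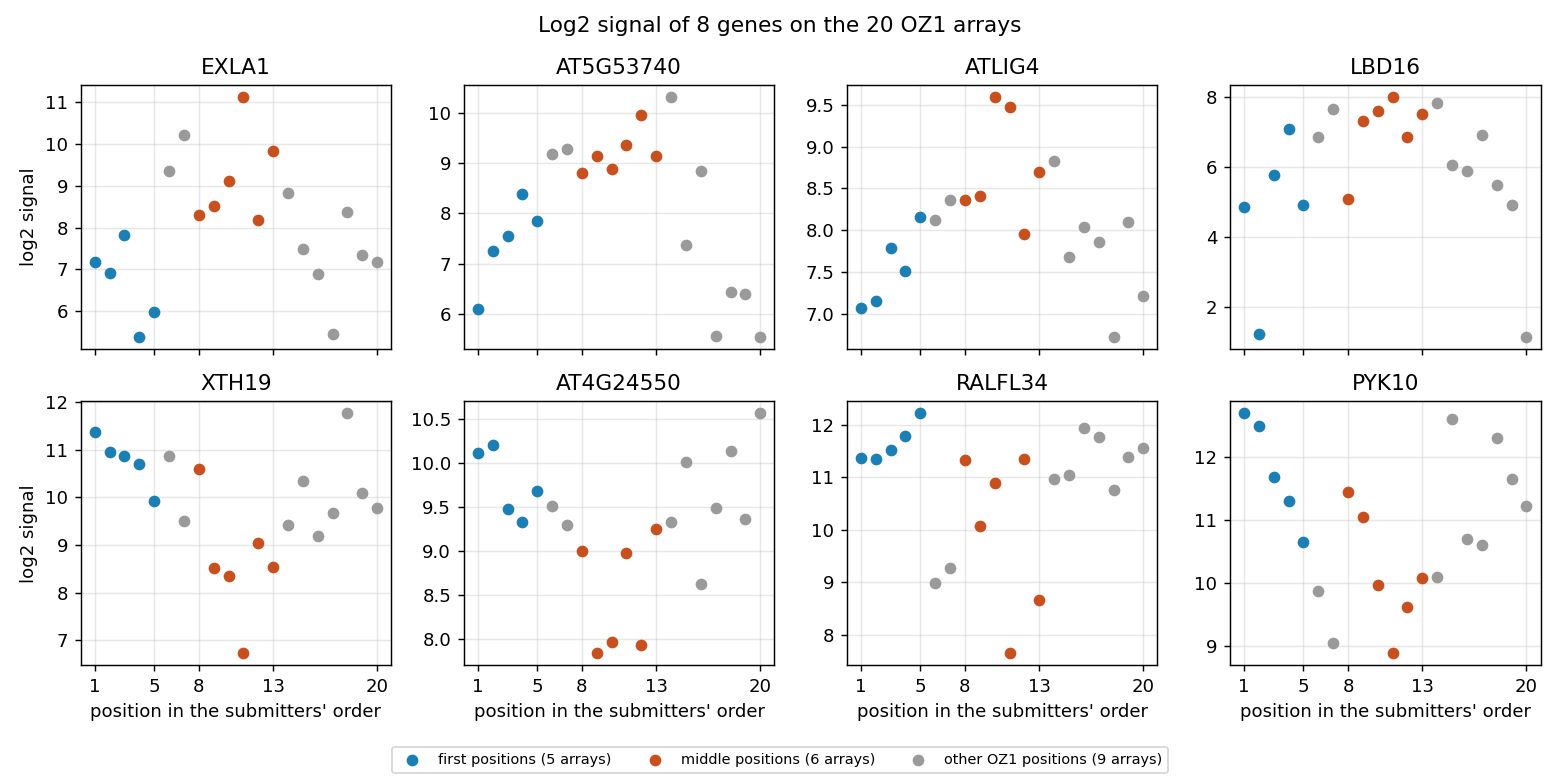
Log2 signal of 8 nuclear genes on the 20 OZ1 arrays against position, 1 point per array, with the first, the middle and the other OZ1 arrays in separate colours. EXLA1, AT5G53740 and AT4G24550 show no overlap between the first and middle arrays, whereas LBD16 and PYK10 overlap.

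Genes of the lateral root founder cells went apart. LBD16 read 4.85, 1.22, 5.78, 7.09 and 4.92 on the first arrays and from 5.07 through a median of 7.41 to 8.00 on the middle arrays, a difference of 2.28 (95% confidence interval 0.35 to 4.21) (unadjusted p = 0.0235, adjusted p = 0.362). OZ1-4 was far below the rest, OZ1-14 reached the level of the middle group, and OZ1-13 of the middle group lay among the first arrays. LBD16 was a dim probe set (mean log2 6.02 over the 11 arrays), and its difference was 1.93 without OZ1-10 and OZ1-3, 1.39 without OZ1-4 and -0.36 with the control term. On scan day 1 alone it was 3.47 and on scan day 2 alone 0.86. RALFL34, singled out after its values were seen, was a bright gene that read 11.37, 11.35, 11.53, 11.79 and 12.23 on the first arrays and from 7.65 through a median of 10.48 to 11.36 on the middle arrays. OZ1-10 at 7.65 and OZ1-3 at 8.66 were lowest, with a difference of -1.66 (95% confidence interval -2.93 to -0.39) (unadjusted p = 0.0139, adjusted p = 0.345). It was -0.74 without them and -0.70 with the control term. On the OZ2 arrays of first title numbers RALFL34 stood at 7.94 ± 0.71 (SD, n = 4). Of 6 founder cell markers 3 were found on the array under their names, the other being LBD29, whose probe set was too dim to be tested.

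Of the 3 root hair markers found, 2 were highest on the same 2 arrays by a wide margin. EXPA7, an expansin of root hair cells, read 8.99, 7.53, 8.51, 4.12 and 4.94 on the first arrays and from 6.69 through a median of 7.60 to 11.76 on the middle arrays, with 11.76 on OZ1-10 and 10.38 on OZ1-3. The difference of 1.72 (95% confidence interval -0.45 to 3.89) was 0.46 without them, 1.08 without OZ1-10 alone and 1.05 without OZ1-14. In OZ2 the corresponding difference was -2.24, and -1.21 without OZ2-10. EXPA18, also of root hairs, stood at 11.34 on OZ1-10 and 9.78 on OZ1-3 and at 7.73 or less on all other members, with a difference of 1.54 that became -0.14 without the 2 arrays. The third, SCN1, which confines hair growth to 1 site of the cell, read 11.23 on OZ1-10 and 10.16 on OZ1-3, against 8.82 to 10.49 on the other 4 middle arrays and 9.93 to 10.80 on the first arrays. Its difference was -0.44 with and -0.73 without the 2 arrays. The summed signal of the 3 root hair markers found, of 7 listed, was 1023 to 2423 on the first arrays, 631 to 1773 on the other 4 middle arrays, 8459 on OZ1-10 and 3361 on OZ1-3.

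Dividing-cell markers differed among themselves on these arrays. Their summed signal, most of it from the bright histone genes, over the 6 found of 10 listed was 6814 to 19901 on the first arrays and 9115 to 29508 on 4 middle arrays, but 3046 on OZ1-10 and 3304 on OZ1-3. Histone HTB2 accordingly had a difference of 0.45 with and 1.37 without them, histone HTB1 one of -0.65 with and 0.18 without, and histone HTB4 one of -0.18 with and 0.59 without. The mitotic Aurora kinases did not follow the histones. AUR1 read 7.88 on OZ1-10 and 8.13 on OZ1-3, within the 7.52 to 8.48 of the other 4 middle arrays, and AUR2 read 7.64 and 6.51 against 5.38 to 7.56. Their differences were 0.71 and 1.57 with the 2 arrays and 0.65 and 1.40 without them. The checkpoint gene BUB3.1 had 0.47 with and 0.85 without. Chlorophyll-binding LHCB4 genes, 3 in number and the green tissue markers found, summed to 79.5 to 180 on the first arrays, 61.7 to 335 on 4 middle arrays, 637 on OZ1-10 and 410 on OZ1-3. The 3 did not move alike. On OZ1-10 and OZ1-3 LHCB4.1 read 8.22 and 7.12, against 3.44 to 4.70 on the other 4 middle arrays. LHCB4.2 read 8.26 and 7.29 against 2.76 to 7.20, and LHCB4.3 read 5.00 and 6.83 against 5.46 to 7.38. Their differences were 1.48, 0.18 and 0.79 with the 2 arrays and 0.34, -1.01 and 1.0 without them. No marker listed for root cap, endodermis, xylem or phloem was found under its name. The wider gene lists of xylem and phloem held 3 tested genes, all dim. GUT2 of xylan synthesis had a difference of 1.35 (0.98 without OZ1-10 and OZ1-3), the vascular peptide gene CLE41 -0.08 (-0.64 without) and the phloem gene OPS 1.90 (1.86 without), and with the control term these were 0.34, -0.92 and 0.20. None of these markers was listed at 0. The part of tissue makeup in the differences was not tested. In bulk arrays fewer cells of a type and less RNA per cell cannot be told apart.

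Of 30 gene lists, 5 had at least 3 bright nuclear members, and a further 13 families that were added after values had been seen had as many. Of these 18, 17 had a median difference below 0 and 12 a median below the -0.30 of all bright nuclear genes. None had a member past the threshold. The lists were not matched for brightness, which the sign followed. Tested probe sets with a mean between 9 and 10 had a median of -0.35, and those between 10 and 11 one of -0.56. Of the 124 bright genes in these lists, 22 turned sign without OZ1-10 and OZ1-3 and 42 with the control term. Tubulins, the subunits of microtubules, had the lowest median, -0.92 over 6 genes, all below 0. TUB5 had a difference of -1.43 (unadjusted p = 0.0089), TUB6 of -0.72 (unadjusted p = 0.0274), TUA6 of -1.14, TUB1 of -1.12 and TUB7 of -0.06. TUB5 had -0.81, TUB1 -0.44 and TUB7 -0.18 without OZ1-10 and OZ1-3, and the control term turned TUA6 to 0.69 and TUB5 to 0.03. Their median was -0.65 without OZ1-10 and OZ1-3, -0.69 after quantile normalization and -0.09 with the control term.

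Expansins and XTH enzymes, which loosen and remodel the wall, had a median of -0.62 over 8 genes, 2 above and 6 below 0. EXLA1 and XTH19 marked the ends, and between them lay XTH21 at 0.15, EXPA9 at -0.55, XTH18 at -0.70, XTH16 at -0.84 and EXPB1 at -1.06. XTH21 turned to -0.73 without OZ1-10 and OZ1-3, where EXPA9 had -0.21, XTH18 -1.30 and EXPB1 -0.42. The wall synthesis list held CSLD2 (-0.92), a cellulose synthase-like protein, COB (-0.57), which orients cellulose deposition, and CSLC04 (-0.10), a xyloglucan glucan synthase. Without the 2 arrays COB had -1.04, which was also the median of this list in place of -0.57, and CSLC04 turned to 0.20. With the control term the medians of both lists turned to above 0, at 0.05 and 0.30. The 8 genes of wall acetylation had a median of -0.42, from TBL32 at -1.68 to TBL38 at 0.58. These ends were -0.82 and -0.98 without OZ1-10 and OZ1-3, with a median of -0.39, and with the control term they were -0.13 and -0.42.

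Families of metabolic enzymes were listed after values had been seen. Of 17 nuclear genes listed for respiration and citrate metabolism 16 had a difference below 0, with a median of -0.65. Of all bright nuclear genes 72.0% were below 0, but that share was not matched for brightness. Tested probe sets with a mean between 10 and 11 had a median of -0.56, with 15.8% above 0. Those between 11 and 12 had -0.61, with 13.8% above 0. IDH-VI, a catalytic subunit of mitochondrial isocitrate dehydrogenase, had -1.48, ACLB-1 of ATP-citrate lyase -1.06 (unadjusted p = 0.0198) and the alternative NADH dehydrogenase NDB2 -1.03. The malate dehydrogenase gene MDH (AT3G47520), placed in this list by its name alone, had -0.88 (unadjusted p = 0.0155), whereas ACLA-3 had 0.21. ACLB-1 had -0.58 and ACLA-3 0.42 without OZ1-10 and OZ1-3, and the control term turned ACLA-3 to -1.09. ACLB-1 lay between 11.19 and 11.25 on the first arrays and between 8.54 and 11.14 on the middle arrays, without overlap. All 6 aldehyde dehydrogenases were below 0, from ALDH7B4 at -0.43 to ALDH10A8 at -1.16 (unadjusted p = 0.0109), and ALDH10A8 did not overlap between the groups. ACLB-1 and ALDH10A8 were each the only member of their list without overlap. On the lower side this held for 14 of all 2430 bright nuclear genes (0.576%) and 0.476% of all tested probe sets. The median of the 6 aldehyde dehydrogenases, -0.75, was -0.44 with the control term, and ALDH7B4 had -0.16 without OZ1-10 and OZ1-3. The 8 UDP-glycosyltransferases, which attach sugars to hormones and phenolics, were likewise all below 0 with a median of -0.66. UGT74D1, which glycosylates auxin and its catabolites, had -1.07 (unadjusted p = 0.00997) and the flavonoid enzyme UGT78D2 -1.05 (unadjusted p = 0.0141). The median of the 8 was -0.40 without OZ1-10 and OZ1-3, where UGT71C4 turned to 0.64 and UGT73B4 to 0.16. With the control term the median of the 8 was -0.63, while that of the respiratory list was -0.15.

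Endoplasmic reticulum bodies, compartments that store a beta-glucosidase against herbivores, were represented by their main protein PYK10 and by NAI2, which is needed to form them. PYK10 read 12.69, 12.48, 11.67, 11.30 and 10.65 on the first arrays and from 8.89 through a median of 10.03 to 11.44 on the middle arrays, a difference of -1.59 (95% confidence interval -2.63 to -0.55) (unadjusted p = 0.00517, adjusted p = 0.331). NAI2 read 10.85, 10.99, 10.24, 9.34 and 9.14 against from 8.41 through a median of 8.95 to 9.38, a difference of -1.22 (95% confidence interval -2.03 to -0.40). In both genes OZ1-1 and OZ1-4 were highest and OZ1-10 lowest, and the groups overlapped. On scan day 1 alone the differences were -3.03 and -1.98, and on scan day 2 alone -0.35 and -0.25. With the control term they were -0.02 and -0.27. Both had been singled out after their values were seen, and the 5 genes of their family had a median of -0.20, which was -0.73 without OZ1-10 and OZ1-3 and which centring on the bright nuclear genes turned to 0.03.

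Lists with medians nearer 0 in all 11 arrays included the ATG8 autophagy genes, whose proteins coat autophagosomes (median 0.00 over 5, from ATG8C at -0.53 to ATG8F at 0.65), vesicle traffic (-0.07 over 16), RNA polymerase subunits (-0.12 over 6), histones (-0.18 over 5) and ubiquitin-conjugating enzymes (-0.25 over 7). Centring on the bright nuclear genes turned the medians of vesicle traffic, RNA polymerase subunits and histones to 0.15, 0.10 and 0.04, and leaving out OZ1-10 and OZ1-3 took those of RNA polymerase subunits and histones to 0.37 and 0.59, of autophagy to -0.35 (ATG8C -0.85, ATG8F 0.10) and of vesicle traffic to -0.22. The control term turned autophagy to -0.18, vesicle traffic to 0.03 and the ubiquitin-conjugating enzymes to 0.03. LSM proteins of RNA decay and splicing had a median of -0.79 over 4 (-0.42 without the 2 arrays), with LSM1A at -0.88 (unadjusted p = 0.022) and LSM1B at -0.93 (unadjusted p = 0.0303). The tetraspanin TET7 had -1.37 (unadjusted p = 0.00824) in a list with a median of -0.40 over 4. Among the 5 RALF-like peptides the median was -0.51, with RALFL32 at 0.64 and RALFL33 at -0.65. RALFL32 turned to -0.59 without OZ1-10 and OZ1-3 and to -0.64 with the control term. Serine carboxypeptidase-like proteins (-0.53 over 7, from SCPL27 at -1.15 to SCPL45 at 0.72) and glutathione transferases (-0.48 over 4) lay between, and the median of the former turned to 0.09 with the control term. SCPL45 had -0.0026 without OZ1-10 and OZ1-3. The metallothionein MT1C, also singled out after its values were seen, had 3.03 to 9.80 on the first and 5.71 to 14.26 on the middle arrays and a difference of 3.06 that was 1.63 without OZ1-10 and OZ1-3 and -0.60 with the control term. With a mean of 6.37 on the first arrays, MT1C counted as bright only through the middle group.

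**Figure D4:**
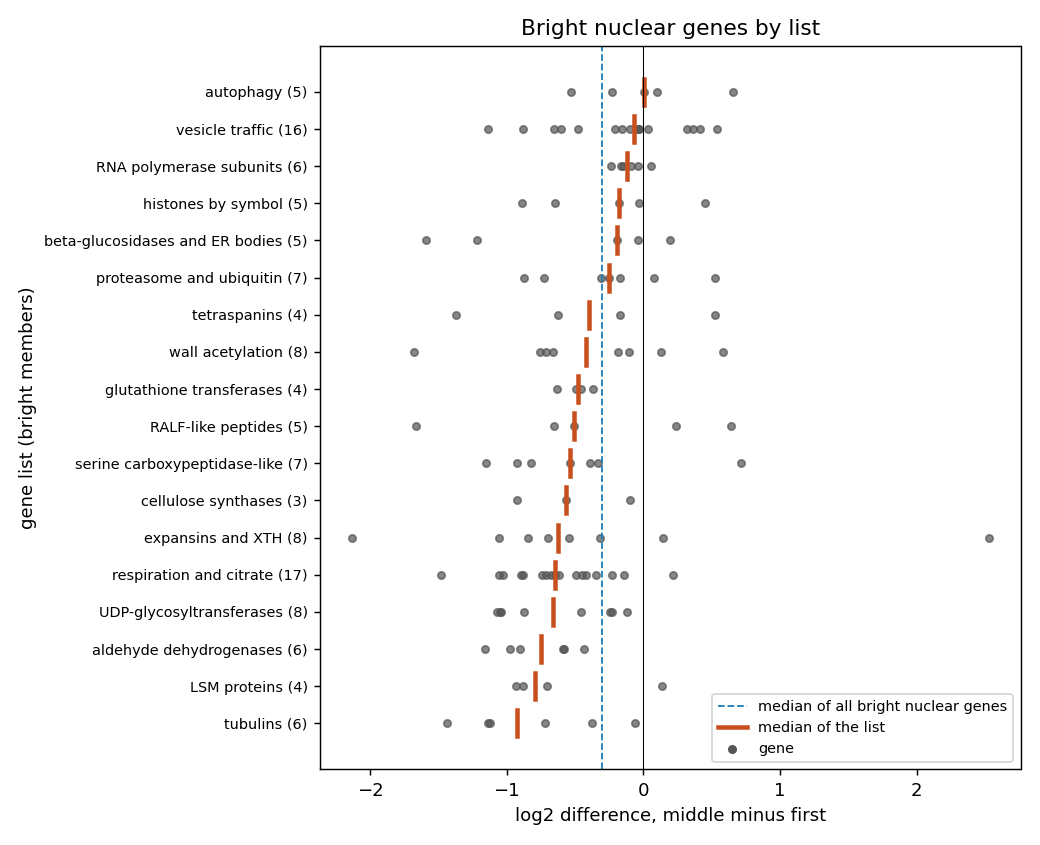
Log2 differences, middle minus first, of bright nuclear genes in the 18 lists with 3 or more such members, 1 point per gene, with the median of each list as a bar and the median of all bright nuclear genes as a dashed line at -0.30. Tubulins lie lowest at -0.92 and autophagy genes highest at 0.00.

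Organelle genes went against the bright nuclear genes. Plastids and mitochondria keep small genomes of their own, whose transcripts mostly lack the stable poly(A) tail of nuclear messages. All 69 tested plastid probe sets had a difference above 0, with a median of 1.43, and 29 had an unadjusted p under 0.05 (42.0%, against 12.4% of all tested probe sets). Their median log2 signal was 7.25, 7.32, 8.73, 8.85 and 9.85 on the first arrays. On the middle arrays it was 11.72 on OZ1-15 and 12.17 on OZ1-16, and between 8.37 and 9.41 on the other 4, within the range of the first arrays. OZ1-15 and OZ1-16 hold adjacent positions, were scanned on the same day and lay with OZ1 on the axis, and OZ1-1 and OZ1-4 were the lowest of the first arrays. ndhK, a subunit of the plastid NAD(P)H dehydrogenase complex, read 6.23, 5.43, 7.58, 7.57 and 8.54 on the first arrays and from 8.25 through a median of 9.39 to 11.57 on the middle arrays, a difference of 2.73 (95% confidence interval 1.28 to 4.18) (unadjusted p = 0.00107, adjusted p = 0.328).

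Mitochondrial gene names behaved alike. The 20 probe sets that carry such names (nad, cox, ccb, matR and orfX) all lay above 0 with a median of 1.23. Of these, 9 had an unadjusted p under 0.05 (45.0%, against 12.4% of all tested probe sets). Their median log2 signal was 6.14, 6.07, 7.36, 7.83 and 7.92 on the first arrays, 9.67 and 9.76 on OZ1-15 and OZ1-16, and 7.46 to 8.06 on the other middle arrays. The 15 nuclear loci AT2G076 to AT2G078, in the part of chromosome 2 that holds a copy of mitochondrial DNA, had a median of 1.46 with 14 above 0. Of all tested probe sets 49.5% lay below 0. AT2G07722 read 6.86, 7.72, 8.01, 8.34 and 8.48 on the first arrays and from 8.80 through a median of 10.49 to 11.52 on the middle arrays, without overlap, and its difference was 2.41 (95% confidence interval 1.28 to 3.53) (unadjusted p = 0.000354, adjusted p = 0.328). AT2G07741 was at 13.00 on OZ1-16 and 12.24 on OZ1-15 and at most 11.31 on all other members. Their probe sets are of a kind shared by near-identical sequences, so whether the signal came from these loci or from the mitochondrial genome is uncertain.

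With the control term the organelle medians were -0.16 for plastid, -0.00297 for mitochondrial names and -0.12 for the chromosome 2 loci, none with an unadjusted p under 0.05. Without OZ1-10 and OZ1-3 they were 1.90, 1.42 and 1.56, and after quantile normalization 1.39, 1.09 and 1.24. Pseudogenes and transposable elements, 131 probe sets of which 125 were dim, had a median of 1.06 with 119 above 0, and 0.21 with the control term. Of all dim probe sets 37.4% lay below 0. The median log2 signal of the 131 was 5.59 to 6.60 on the first and 6.61 to 7.86 on the middle arrays.

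**Figure D5:**
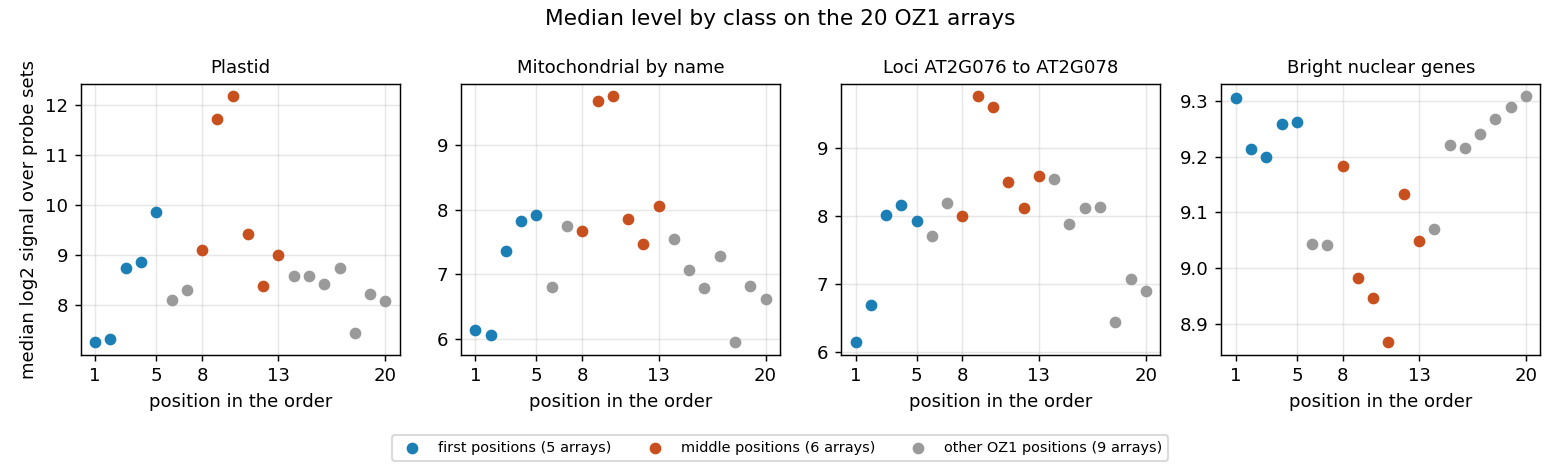
Median log2 signal per array of the 69 plastid probe sets, the 20 with mitochondrial names, the 15 loci AT2G076 to AT2G078 and the bright nuclear genes on the 20 OZ1 arrays against position. OZ1-15 and OZ1-16 at positions 9 and 10 stand highest in the organelle panels, and the bright nuclear genes are lowest from position 6 to 14.

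Dim nuclear genes are given apart, since the sign of the difference followed brightness. On the higher side AT5G18130 read 5.18, 3.71, 4.24, 4.75 and 3.45 on the first arrays and from 6.21 through a median of 7.44 to 8.18 on the middle arrays, a difference of 3.00 (95% confidence interval 1.72 to 4.29) (unadjusted p = 0.000154, adjusted p = 0.328). It did not overlap between the groups, nor did AT2G38680 (2.38), and AT2G24240 (2.60) overlapped through OZ1-15. On the higher side the groups did not overlap in 74 of all 4874 dim nuclear genes (1.52%) and in 1.12% of all tested probe sets. Every first-array value of AT5G18130 lay below 5.69, the mean level that the filter required. AT5G18130, AT2G38680 and AT2G24240 kept differences of 2.95, 2.76 and 3.01 with the control term. On the lower side AT2G35910 (-2.10), AT5G44820 (-3.05) and AT1G50580 (-1.82) had the smallest p, and the first of these read 7.67, 7.49, 7.87, 7.66 and 7.34 against from 4.40 through a median of 5.43 to 6.67. Their differences were -1.89, -1.81 and -0.81 with the control term.

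The middle arrays were next set against the 9 OZ1 arrays outside both groups, at positions 6, 7 and 14 to 20, which share the middle arrays with the first comparison. Of these 9, OZ1-2 and OZ1-6 also lay near OZ2, with places of 0.84 and 0.75, and leaving out either gave 0 calls (limma). Of 13647 probe sets 0 (0.0%) passed the test (limma), with an unadjusted p under 0.05 for 1262 (9.25%, 5.22% higher and 4.03% lower). The groups did not overlap in 0.147% of probe sets on the higher and 0.0147% on the lower side. The median over bright nuclear genes was -0.19. EXLA1 had a difference of 1.28, AT5G53740 of 1.56, XTH19 of -1.44, AT4G24550 of -1.10 and AT4G01870 of -0.36. The 16 bright genes were chosen on these same middle arrays, so their signs here are not independent of the first comparison. The plastid median was 1.75, with 61 of 69 at an unadjusted p under 0.05.

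OZ2 held 4 arrays with title numbers of the middle group (10, 13, 15 and 32) and 4 with those of the first group (1, 4, 14 and 23), none of them used by the rule. Whether a shared number stands for 1 root is not stated. Their difference gave 0 calls (0.0%, limma) and an unadjusted p under 0.05 for 822 probe sets (6.02%, 2.89% higher and 3.13% lower), and the groups did not overlap in 2.23% on the higher and 2.0% on the lower side. The bright nuclear median was -0.13 and the plastid median 1.13. Hybridisation controls were 13.40 ± 1.42 (SD, n = 4) against 12.24 ± 0.26 (SD, n = 4), with 15.45 on OZ2-32 alone, an array whose place between the regions was 0.29. Of the 8 bright genes on the higher side 7 kept their sign in OZ2, and of the 8 on the lower side 5. These counts rested on single arrays. On the higher side EXLA1, AT5G53740, ATSRL1, AT5G11680 and AT5G14210 each turned below 0 when 1 OZ2 array was left out. AT5G53740 had 0.88, but -0.09 without OZ2-32, and AT2G07722 had 0.63, but 0.03 without it. On the lower side XTH19 and AT2G47550 each turned above 0 in the same way. Over all bright nuclear genes 57.5% were below 0. On leaving out single OZ2 arrays, AT2G07741 (1.35, unadjusted p = 0.00517, adjusted p = 0.719, limma) stayed between 1.22 and 1.54, and ndhK (1.53) between 1.21 and 1.77. The dim gene AT2G24240 (-0.56), on the side opposite to OZ1, stayed between -0.59 and -0.51. Each of the values that follow moved by over 1.5 times when 1 OZ2 array was left out. XTH19 had -1.67, but 0.13 without OZ2-10, which stood at 2.24. AT3G09570 had -1.20, but -0.31 without OZ2-32, and AT3G44330 had -1.27, but -0.66 without OZ2-10. EXLA1 had 0.29, but -0.31 without OZ2-10, AT4G24550 had -0.30, but -0.15 without it, and AT5G10160 had 0.48, but 0.07 without it.

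The difference between the regions was itself tested as an interaction over 19 arrays. No probe set passed (0 of 13647, 0.0%, limma, smallest adjusted p = 0.607), and 892 (6.54%, 2.43% higher and 4.1% lower) had an unadjusted p under 0.05. Of the 26 genes named by rule 10 were among them. All but LBD16, EXPA7, EXPA18 and ndhK had been chosen for a small p of the OZ1 difference on these same arrays. That difference is part of the interaction, so the count of 10 is not independent of the choice. The smallest p was that of the dim gene AT2G24240 (unadjusted p = 0.000251, adjusted p = 0.607), whose difference was 2.60 in OZ1 and -0.56 in OZ2. The bright genes were AT5G10160 (unadjusted p = 0.0106), AT3G60910 (0.0193), EXLA1 (0.0232) and AT2G07722 (0.0431). The other dim genes were AT5G18130 (0.013), AT2G38680 (0.0197) and AT2G35910 (0.0322), beside EXPA7 (0.0164) and EXPA18 (0.0185). Adjusted p of the 10 ran from 0.607 to 0.753. Of the genes named from the lists, RALFL34 (unadjusted p = 0.0183) and TET8 (0.0218) were also among them. No gene is thus shown to differ between OZ1 and OZ2 in this contrast.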

How the data were processed

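Total RNA was biotin-labelled and hybridised to ATH1 arrays. The authors deposited an intensity for each probe set of each array. The submitters' processing notes name MAS5, with no version in the sources used here. Trimmed means of the arrays ran from 249.8 to 249.9. The values were used as log2 without further normalization. Instrument records deposited by the authors (unit other) gave the scan day.

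Of 22810 probe sets, 64 controls were left out, and 13647 above the 40th percentile of mean log2 (5.69) were tested. Names came from the platform table (13513 probe sets with 1 gene, 503 with several, 8730 unnamed here) and TAIR10.1 (13436 matched). Where several probe sets named a gene, the one of highest mean was kept. The 2 groups were compared with limma 3.58.1 (lmFit, eBayes with trend, two-sided) in R 4.3.3, with Benjamini-Hochberg adjustment and a threshold of 0.05, tested on simulated data first. Exact permutation tests used scipy 1.17.1. The one planned for the control level is not given, since that level was known when the groups were set.

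By rule the named genes were the 8 bright nuclear genes with the smallest p in each direction (the 12 largest changes would have been named had enough passed), 3 dim ones in each direction, LBD16, EXPA7, EXPA18 and ndhK, and extremes of the lists were named after their values were seen. Lists were matched on symbols and synonyms. The members and lists were chosen with earlier results of these data known. Replicates are separate arrays, and for arrays their number limits the precision. No detection calls and no sequences were used here. The alternatives tried are given in the closing section.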

Additional observations from a re-analysis of the deposited data

Results flagged for a closer look

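In 208 groups of 4 to 9 arrays that were looked at, 5 held an array whose gap to its nearest neighbour was large for the group's range, where chance gives about 5% of groups. The count is thus below what chance gives, and the 5 are listed as a description. AT2G47550 read 10.98 on OZ2-4, far from the other OZ2 arrays with first-group numbers. LBD16 read 1.14 on OZ1-20, far below the other OZ1 arrays outside both groups. TBL32 read 3.64 on OZ1-10, far below the other middle arrays. HTB2 read 10.94 on OZ1-17, far above the other first arrays. ALDH7B4 read 11.76 on OZ1-17, against 11.36 or less on the other first arrays, while OZ1-35 outside both groups read 11.72.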

How the results depend on the processing

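No probe set passed the threshold in the main comparison under any of 26 settings, whose smallest adjusted p ranged from 0.0589 (without OZ1-14) to 1, and 0 passed in the comparison with the other OZ1 arrays or in OZ2, also on leaving out single arrays, or between the regions, where no single array was left out. For the bright nuclear genes, unadjusted p under 0.05 counted 41 higher and 248 lower with a median of -0.30. These counts were 24 and 135 after quantile normalization, 90 and 114 centred on bright nuclear probe sets (median -0.078), 1 and 6 with the control term (-0.077), 4 and 15 on scan day 2 alone, and 95 and 414 for positions 9 to 12 against 1 to 4. The higher count was 75 with the axis place as a term (-0.19), 73 without OZ1-10 and OZ1-3 after quantile normalization (-0.16), 174 at a mean log2 of 7 or more (-0.15) and 6 at 9 or more (-0.46). Without OZ1-10 and OZ1-3 the median was -0.19. Over all tested probe sets, 1015 higher and 679 lower with a median of 0.01 became 336 higher after quantile normalization (-0.24), 1546 and 325 centred (0.23), 2828 higher with no filter (0.38), 464 higher with a filter at the 60th percentile (-0.14), 322 and 41 on scan day 2 alone, 84 and 103 with the control term, 441 and 1160 without OZ1-10 and OZ1-3 after quantile normalization (-0.20), and 1192 lower for positions 9 to 12 against 1 to 4. The cause of these shifts was not tested.

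Leaving out each array in turn gave medians of -0.36 to -0.24 for the bright nuclear genes, with 16 to 66 higher and 134 to 367 lower, and medians of -0.01 to 0.03 over all probe sets, with 695 to 1253 higher and 353 to 1011 lower. The control difference of 1.87 was 1.60 without OZ1-10 and OZ1-3, 2.58 on scan day 1 and 1.06 on scan day 2, and 1.58 to 2.15 on leaving out single arrays. The axis difference of 0.39 was 0.22 to 0.46 on leaving out single arrays. Without OZ1-10 and OZ1-3 it was 0.05 (exact permutation test, p = 0.571), and without OZ1-23 it was 0.45 (exact permutation test, p = 0.00952).

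Of 672 values of the 26 genes named by rule under alternatives, 666 kept their sign and 6 reversed. With the control term AT2G07741 had -0.24, AT5G14210 -0.035 and LBD16 -0.36. EXPA18 had -0.34 with the axis place as a term, -0.14 without OZ1-10 and OZ1-3 and -0.64 without them after quantile normalization.

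The first and middle groups share no title number. In the test between the regions, of 8 numbers shared with OZ2, 2 had a correlation of deviations over 0.1 (range -0.03 to 0.15). Of these 8, 2 matched best with their own number. These values cannot decide whether a shared number stands for the same root, since no pair known to share a root was at hand. With the title number as a replicate block 0 probe sets passed and 1006 had an unadjusted p under 0.05, against 892 without it. The settings added after seeing the data were the axis term, the fit without OZ1-10 and OZ1-3 after quantile normalization, single arrays left out against the other OZ1 arrays, and the subsets of the permutation tests.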
